A study of Caenorhabditis elegans with 2 samples.

Results

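The long non-coding RNA genes of Caenorhabditis elegans were examined for sites bound by HRDE-1. They were taken as every gene of biotype lincRNA or antisense_RNA in the Ensembl annotation of assembly WBcel235, which gave 294 genes of 46926. Of these, 194 were lincRNA genes and 100 were antisense RNA genes, and all 294 were on nuclear chromosomes. Long intergenic non-coding RNAs (lincRNAs) are transcripts with no evident protein product whose genes lie mostly between protein-coding genes, and antisense RNAs are transcribed across a protein-coding gene from its opposite strand. HRDE-1, also called WAGO-9, is a nuclear Argonaute protein of the germline. It is guided by secondary small RNAs to matching nascent transcripts, and it is known for heritable silencing across generations. The small RNAs it binds are antisense to their targets. Most lincRNA genes of the worm have no assigned function.

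Binding was mapped by ChIP-seq, the sequencing of DNA precipitated with a chromatin protein, in strain YL557. Whole animals were collected as hermaphrodite young adults, 48 h after starved L1 larvae were released. This line stably carries WAGO-9 fused at its C terminus to GFP-FLAG. The description says the precipitation used an antibody against GFP, whereas the antibody field names hrde-1. There was 1 group with 2 biological replicates and no untagged or mutant group, and the promoter of the transgene is not named in the labels. Whole animals were used, so germline and somatic sites cannot be told apart.

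Sites were read from 4 lists on build ce11, which is the same assembly as WBcel235. The authors' list thresholded for reproducibility between replicates (irreproducible discovery rate, IDR) held 1341 peaks. The pooled list held 30000 candidate sites, replicate 1 had 24269 candidates and replicate 2 had 30000. The IDR peaks were the 1341 pooled candidates of highest signal, so the pooled list extends the same ranking to weaker sites. A gene was counted when the summit of a site fell between 500 bp upstream of its annotated start and its 3′ end. Read depth is unknown, because the lists carry no read counts. The intervals below are exact (Clopper-Pearson) 95% binomial intervals over genes or summits. They cover counting error only and treat neighbouring genes as independent.

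Few lincRNA and antisense RNA genes held an IDR peak. A summit of the IDR list fell in the window of 5 of the 294 genes, or 1.70% (0.554 to 3.92%), whereas 3.23% of all 46890 nuclear genes held one. The 5 comprised 4 of 194 lincRNA genes, or 2.06% (0.565 to 5.19%), and 1 of 100 antisense RNA genes, or 1.00% (0.0253 to 5.45%). All 3 intervals include the value of all nuclear genes. That value, from 1516 genes, is lowered by the 15363 piRNA genes among them, of which 0.0911% (14 genes) held an IDR summit. With the piRNA genes left out, the value of nuclear genes lies above the interval of the 294 genes. It remains inside the wider intervals of the lincRNA genes and of the antisense RNA genes. Among other gene types the share was 2.76% of ncRNA genes, 0.799% of pseudogenes and 4.99% of protein-coding genes. Per kb of window, the density of IDR summits was 0.0103 in the lincRNA and antisense RNA windows and 0.0176 in the windows of all other nuclear genes.

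**Figure D1:**
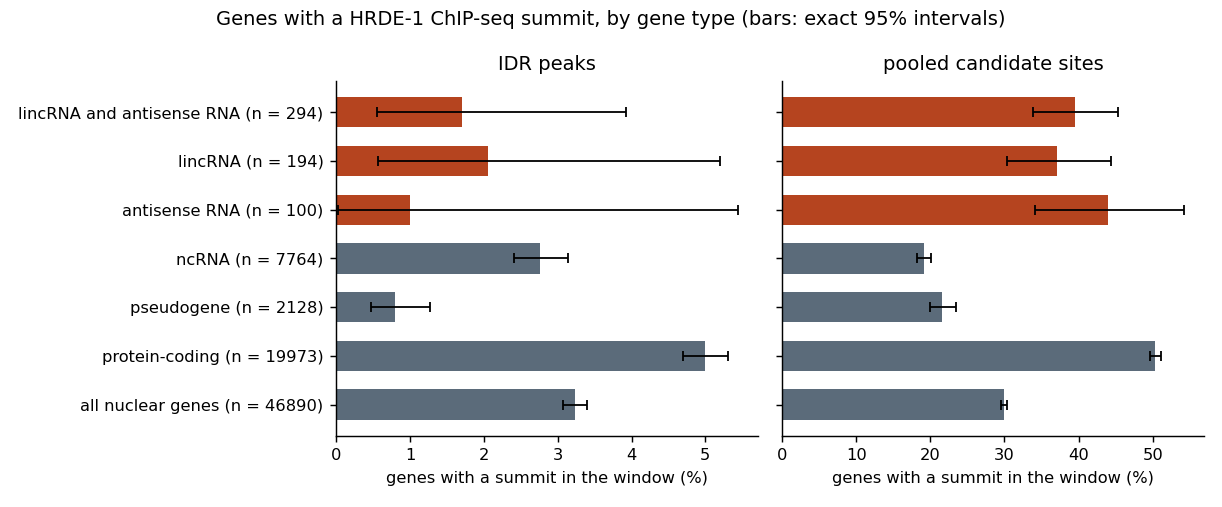
Share of genes (x axis, percent) with a summit between 500 bp upstream of the start and the 3′ end, for the IDR peaks on the left and the pooled candidates on the right. Bars are gene types with their number of genes, lincRNA and antisense RNA genes in orange above the others in grey, and black lines are exact 95% intervals; 1.70% of the 294 genes held an IDR peak and 39.5% a pooled candidate.

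Of the 5 genes with an IDR peak, 3 had it within 500 bp of a tRNA or snoRNA gene. Over all 1319 nuclear IDR summits this share was 25.9%, and the interval for 3 of 5 runs from 14.7 to 94.7%, which includes it. Whether the signal belongs to the long RNA gene or to its small neighbour was not tested. The lincRNA gene K07C10.8 (chrII:11166676-11167706, plus strand) had its summit at position 11167276, in an intron 600 bp into the gene. That base lies inside the 87-bp snoRNA gene K07C10.2, one of the small nucleolar RNAs that guide modification of other RNAs. The pooled signal, the authors' score of a site against the control, was 151.1, which ranked 212 of 30000. The same summit ranked 242 in replicate 2, and a summit 13 bp away ranked 265 in replicate 1, so the site stood in the top 1.09% of replicate 1 and the top 0.807% of replicate 2. The nearest protein-coding start or 3′ end was 4795 bp away.

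The lincRNA gene linc-44 (chrII:5781921-5782113, minus strand) is 193 bp long and had its summit at position 5782072, in its exon 41 bp from the start. The signal was 184.7 and ranked 126. Summits within 37 bp ranked 293 in replicate 1 and 120 in replicate 2. The 71-bp tRNA gene F10C1.t1 lay 140 bp from the summit, and the start of the protein-coding gene K05F1.6 lay 448 bp from it. The only antisense RNA gene with an IDR peak was F17C11.20 (chrV:10968312-10969544, plus strand), which overlaps the protein-coding gene F17C11.22. Its summit, at position 10967998, was 314 bp upstream of its start, 76 bp from the 3′ end of eef-1G, the gamma subunit of a translation elongation factor, and 382 bp from the 127-bp snoRNA gene F17C11.14. The signal was 96.05 with rank 741, and summits within 6 bp ranked 1195 in replicate 1 and 719 in replicate 2.

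The other two lincRNA genes with an IDR peak had no small RNA gene within 500 bp of the summit. linc-1 (chrI:13652524-13652727, plus strand) had the highest signal of the 294 genes, 185.7 with rank 125. Its summit lay in the exon, 170 bp into a 204-bp gene, and 255 bp from the 3′ end of rpl-31, which encodes a protein of the large ribosomal subunit. The same base ranked 156 in replicate 2, and a summit 74 bp away ranked 82 in replicate 1. M04F3.7 (chrI:4768331-4769063, minus strand) had a signal of 90.53 with rank 856, at a summit 494 bp upstream of its start and 735 bp from the start of rpa-2, which encodes a subunit of replication protein A. Its nearest summit in replicate 2 was 4 bp away with rank 1086. The nearest in replicate 1 was 139 bp away with rank 765 and fell outside the gene window, so this gene counts as having no candidate in replicate 1.

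With the 3 peaks within 500 bp of a protein-coding start or 3′ end set aside, 2 IDR summits remained at K07C10.8 and M04F3.7. In the part of the windows over 500 bp from those ends, the density was 5.48 IDR summits per Mb in the lincRNA and antisense RNA windows, from 2 summits, against 4.23 per Mb over the nuclear genome, from 293. Within 500 bp of protein-coding ends it was 26.4 per Mb in these windows and 33.0 per Mb over the genome.

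The sequences under the strongest sites show what kind of DNA they cover. Each is given for 151 bases centred on the summit, from the RefSeq WBcel235 genome and on the strand of the named gene. Capitals mark the bases of a small RNA gene where one overlaps the stretch, and otherwise the 11 bases centred on the summit. In the K07C10.8 stretch (chrII:11167201-11167351, plus strand) the summit lies within the 87 bases of the snoRNA gene K07C10.2. The linc-44 stretch (chrII:5781997-5782147, minus strand) stops short of its neighbouring tRNA gene. The W10G6.5 stretch (chrX:16271215-16271365, plus strand) holds 70 of the 72 bases of the tRNA gene F52E10.t5, which is transcribed from the other strand.
K07C10.8: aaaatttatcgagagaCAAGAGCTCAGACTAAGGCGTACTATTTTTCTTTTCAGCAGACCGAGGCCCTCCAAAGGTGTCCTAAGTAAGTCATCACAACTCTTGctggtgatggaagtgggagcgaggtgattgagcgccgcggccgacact
linc-44: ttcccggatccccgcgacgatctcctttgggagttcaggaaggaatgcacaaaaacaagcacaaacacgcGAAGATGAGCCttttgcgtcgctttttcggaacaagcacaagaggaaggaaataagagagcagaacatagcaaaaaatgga
W10G6.5: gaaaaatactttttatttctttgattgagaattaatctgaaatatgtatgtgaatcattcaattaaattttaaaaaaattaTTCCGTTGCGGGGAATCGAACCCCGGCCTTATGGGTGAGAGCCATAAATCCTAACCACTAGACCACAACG

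Below the IDR list, the strongest sites were ranked by summits over 500 bp from every protein-coding start or 3′ end. The 20 genes with the highest such signals comprised 12 lincRNA genes and 8 antisense RNA genes, and 18 of them had no IDR peak. The lowest signal in the IDR list was 73.95, and the median of the pooled list was 23.03. linc-91 had a signal of 64.13 with rank 1828, at a summit in an exon, and the same base ranked 1853 in replicate 2. The antisense RNA gene W10G6.5 had 63.69 with rank 1864, at a summit 6 bp from F52E10.t5. It spans ifa-3, an intermediate filament gene. linc-29 followed with 53.04, in an exon 6526 bp from the nearest protein-coding end, and then anr-11, which overlaps dcaf-1, with 52.05 at 367 bp upstream of its start. linc-129 had 49.05, linc-27 had 48.12 and linc-109 had 47.70. The remaining 11 of the 18 genes had signals from 32.45 at F31F7.9 to 42.73 at linc-105. The strongest such summit lay in an exon of the named gene at 11 of the 18, upstream of it at 6 and in an intron at 1. At 7 of the 8 antisense RNA genes it lay inside the overlapped protein-coding gene. Those hosts included set-1, a histone methyltransferase gene, at anr-1, cdk-2, a cell-cycle kinase gene, at anr-45, and nhr-66, a nuclear hormone receptor gene, at anr-44.

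The replicates ranked some of these sites differently. anr-11 stood in the top 8.94% of replicate 1 and the top 9.07% of replicate 2, by the summits nearest to its pooled summit. linc-91 stood in the top 15.3% and the top 6.18%, and W10G6.5 in the top 6.12% and the top 14.3%, in the same order of replicates. linc-27 was in the top 8.05% of replicate 1 but only the top 23.8% of replicate 2. linc-109, at its strongest site away from protein-coding ends, was in the top 57.0% of replicate 1 and the top 10.1% of replicate 2. At anr-45 and Y54G11A.20 the nearest summit of replicate 1 was 605 bp and 1629 bp away, so those sites had no counterpart there.

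**Figure D2:**
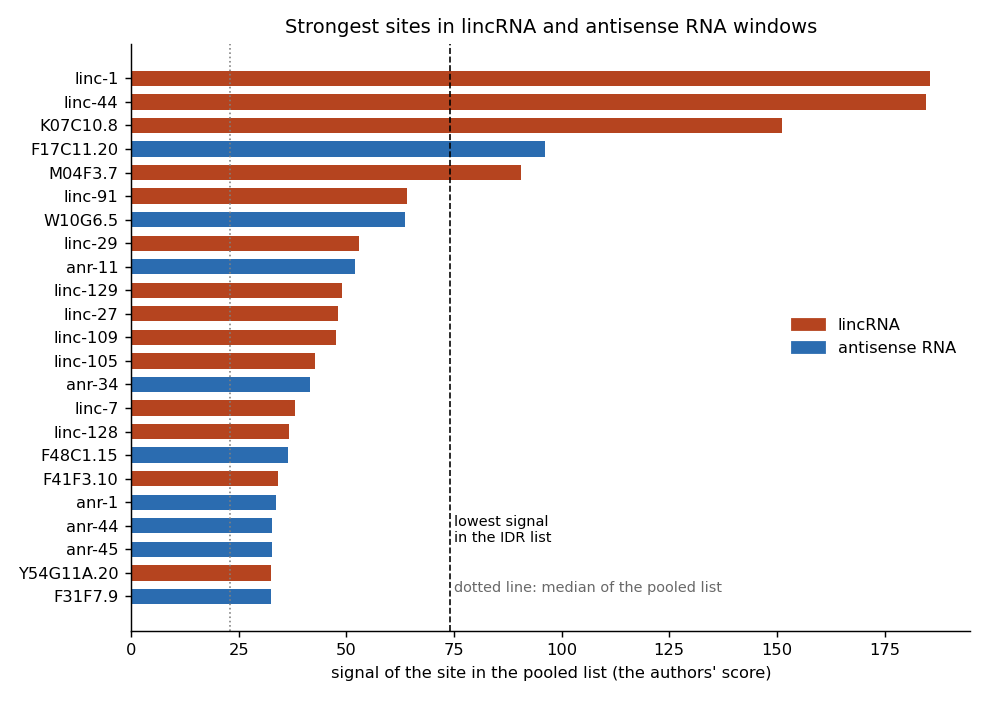
Signal of the strongest qualifying site in the pooled list (x axis, the authors' score) for the 5 genes with an IDR peak and the next 18 genes, for which only summits over 500 bp from protein-coding ends were taken. Orange bars are lincRNA genes and blue bars antisense RNA genes; the dashed line is the lowest signal in the IDR list, 73.95, which the top 5 bars pass, and the dotted line is the median of the pooled list, 23.03.

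The 4 strongest of these sites with no small RNA gene in the stretch and a printable sequence are shown for comparison with the small RNA genes above, with the 11 bases at the summit in capitals. They are the exonic site of linc-29 (chrIV:6354326-6354476, plus strand), the upstream site of anr-11 (chrIV:9700422-9700572, plus strand), the exonic site of linc-129 (chrIII:10819678-10819828, plus strand) and the upstream site of linc-27 (chrII:6370277-6370427, minus strand). Their GC content was 41.7%, 27.2%, 47.0% and 51.0% in that order.
linc-29: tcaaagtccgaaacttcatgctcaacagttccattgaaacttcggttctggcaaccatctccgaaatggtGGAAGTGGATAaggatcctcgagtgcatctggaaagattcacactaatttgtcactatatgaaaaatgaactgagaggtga
anr-11: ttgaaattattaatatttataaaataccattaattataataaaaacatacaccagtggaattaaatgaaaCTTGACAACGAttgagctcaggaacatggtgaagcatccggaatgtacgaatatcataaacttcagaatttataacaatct
linc-129: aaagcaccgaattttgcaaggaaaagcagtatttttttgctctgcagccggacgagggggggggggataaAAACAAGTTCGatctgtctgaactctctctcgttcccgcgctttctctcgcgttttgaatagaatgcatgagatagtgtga
linc-27: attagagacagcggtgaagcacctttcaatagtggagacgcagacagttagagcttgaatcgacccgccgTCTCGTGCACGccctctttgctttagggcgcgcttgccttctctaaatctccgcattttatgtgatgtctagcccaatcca

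Candidate sites of the pooled list were more widespread in these genes than IDR peaks. A candidate summit fell in 116 of the 294 windows, or 39.5% (33.8 to 45.3%), whereas 29.9% of all nuclear genes held one. The nuclear genes include 15363 piRNA genes, with a median window of 521 bp. Of these, 7.80% (1198 genes) held a candidate, which lowers the value of all nuclear genes (14038 genes). With the piRNA genes left out, the value of nuclear genes is slightly above that of the 294 genes and inside their interval. The share was 37.1% (30.3 to 44.3%) of the lincRNA genes and 44% (34.1 to 54.3%) of the antisense RNA genes. It was 19.1% of ncRNA genes, 21.6% of pseudogenes and 50.4% of protein-coding genes. Window length differed between these types, with a median of 1219.5 bp for the lincRNA and antisense RNA genes, 640 bp for ncRNA genes and 2527 bp for protein-coding genes. Per kb of window there were 0.361 candidate summits for the 294 genes, 0.326 for lincRNA and 0.440 for antisense RNA. The density was 0.347 per kb for ncRNA genes, 0.166 for pseudogenes and 0.353 for protein-coding genes.

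The higher share than over all nuclear genes, piRNA genes included, was not seen among the stronger candidates. Taking the upper tercile of the pooled list by signal, 45 of the 294 genes, or 15.3%, held a summit, and 15.4% of all nuclear genes did. Among genes of like length, the share with a candidate was 33.6% of lincRNA and antisense RNA genes of at most 500 bp and 22.1% of protein-coding genes of that length. From 501 to 1000 bp it was 42.5% of lincRNA and antisense RNA genes and 38.4% of protein-coding genes, and from 1001 to 2000 bp it was 36.1% of lincRNA and antisense RNA genes and 41.4% of protein-coding genes. Over 2000 bp, 52.0% of the lincRNA and antisense RNA genes and 62.1% of the protein-coding genes held one. The order against protein-coding genes thus changed with gene length. Pseudogenes had lower shares than the lincRNA and antisense RNA genes in each length class, at 17.9%, 18.5%, 18.3% and 33.3% from the shortest to the longest. For ncRNA genes the shares were 18.8%, 39.1%, 50% and 62.5% in the same order, from 7658, 64, 26 and 16 genes. They were thus lower than those of the lincRNA and antisense RNA genes up to 1000 bp and higher above it. These differences were not tested.

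By chromosome, the share of lincRNA and antisense RNA genes with a candidate was highest on chromosome III, at 23 of 39 genes (59.0%), and on chromosome I, at 21 of 37 (56.8%). The other nuclear genes had 57.3% on chromosome III and 55.1% on chromosome I. The share was lowest on the X chromosome, at 11 of 45 (24.4%), where 26.9% of the other genes held a candidate. The gap was widest on chromosome IV, at 32.7% of the 49 lincRNA and antisense RNA genes and 17.3% of the other genes. Chromosome IV carries most of the annotated piRNA genes, and 7.80% of the piRNA genes held a candidate. On chromosome V, 35.8% of the lincRNA and antisense RNA genes and 28.6% of the other genes held one. On chromosome II it was 36.8% of the lincRNA and antisense RNA genes and 42.7% of the other genes.

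The candidates were then separated by distance from protein-coding genes, since a lincRNA or antisense RNA window can take in the promoter or the 3′ end of a neighbour. Of the 174 distinct pooled summits in these windows, 116 lay over 500 bp from any protein-coding start or 3′ end, or 66.7% (59.1 to 73.6%). Over all nuclear candidates this share was 56.5%. Such a summit was present in 85 of the 294 genes, 57 of them lincRNA and 28 antisense RNA genes, whereas 18.0% of all nuclear genes had one. Protein-coding genes of 1000 bp or less cannot have one by construction, which lowers that value. The piRNA genes, at 6.11%, lower it too. For 31 of the 294 genes the only candidates were within 500 bp of a protein-coding end.

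In bases over 500 bp from protein-coding ends, the density of pooled candidates was 318 per Mb in the lincRNA and antisense RNA windows and 245 per Mb over the nuclear genome. The density was 301 per Mb in lincRNA windows and 369 per Mb in antisense RNA windows. The rest of the same chromosomes, at its own density, would place 90.4 summits in these bases, and the 116 observed give a ratio of 1.28 (1.06 to 1.54, exact 95% Poisson interval). Without linc-129 the ratio was 1.21 (0.995 to 1.46). It was 1.22 (0.984 to 1.51) in replicate 1 and 1.27 (1.04 to 1.52) in replicate 2. Without linc-129 it was 1.20 (0.960 to 1.48) in replicate 1 and 1.23 (1.01 to 1.48) in replicate 2. The interval thus includes equal densities in replicate 1, and in the pooled list once linc-129 is left out, but not in replicate 2 with or without linc-129.

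Within the windows the candidates were spread much as the bases were. Of 175 pairs of a gene and a pooled summit, 57 were upstream of the gene, 77 in an exon and 41 in an intron, which is 32.6%, 44% and 23.4% in that order. Upstream sequence, exons and introns held 30.3%, 44.2% and 25.4% of the window bases. Around the annotated starts the density of the 294 genes was 0.408 summits per kb in the 250 bp upstream and 0.381 in the 250 bp downstream. Among protein-coding genes it was 0.509 upstream and 0.449 downstream, and among ncRNA genes it was 0.348 upstream and 0.473 downstream. The intervals of the 294 genes were wide enough to include the protein-coding values in both bins.

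**Figure D3:**
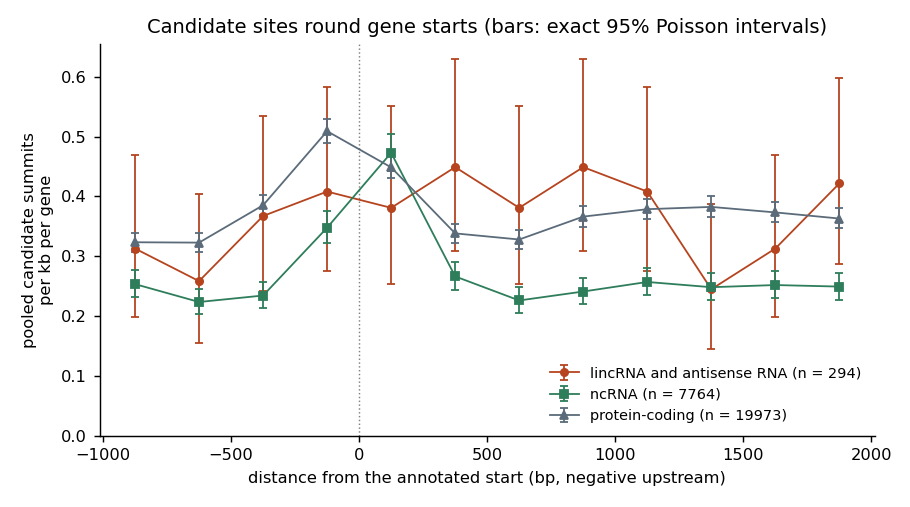
Pooled candidate summits per kb per gene (y axis) in 250-bp bins of distance from the annotated start (x axis, bp), for lincRNA and antisense RNA genes in orange, ncRNA genes in green and protein-coding genes in grey. Vertical lines are exact 95% Poisson intervals; bins run past the 3′ end of short genes. The orange values lie between 0.245 and 0.449 with no maximum at the start, whereas protein-coding genes reach 0.509 just upstream.

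Signal and sequence at these candidates were close to those of candidates elsewhere. The median signal was 23.31 at the 174 summits in lincRNA and antisense RNA windows and 23.02 over all nuclear candidates. For summits over 500 bp from protein-coding ends it was 22.75 in lincRNA and antisense RNA windows and 21.28 over the nuclear genome. Soft-masked repeat sequence held 36.2% (29.1 to 43.8%) of the 174 summits and 33.5% of all nuclear candidates. The median GC content of 151 bp round the summit was 36.4% at those 174 summits and 37.1% over all. A tRNA, snoRNA or snRNA gene lay within 500 bp of 5 of the 174 summits, or 2.87%, and of 3.42% of all nuclear candidates.

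The replicates placed many of these candidates at different positions. A candidate of replicate 1 was present in 91 of the 294 genes, or 31.0% (25.7 to 36.6%), whereas 28.6% of all nuclear genes had one. A candidate of replicate 2 was present in 110, or 37.4% (31.9 to 43.2%), whereas 30.7% of all nuclear genes had one. The interval includes the value of all nuclear genes, piRNA genes included, in replicate 1 and lies above it in replicate 2. Both replicates had one in 59 genes, or 20.1% (15.6 to 25.1%), whereas 20% of all nuclear genes had one in both. The 15363 piRNA genes lower these values of all nuclear genes. Their shares were 5.96% in replicate 1, 8.18% in replicate 2 and 1.43% in both. With the piRNA genes left out, the value of nuclear genes lies above the interval in replicate 1 and inside it in replicate 2. For a candidate in both replicates it then lies above the interval. Replicate 1 alone had one in 32 genes (10.9%) and replicate 2 alone in 51 (17.3%). Of all 46890 nuclear genes, 13389 had one in replicate 1, 14380 in replicate 2 and 9370 in both. No list had a candidate in 142 genes, or 48.3% (42.5 to 54.2%), whereas 59.2% of all nuclear genes had none. The piRNA genes raise that value, since few of them held a candidate in any list. Among the 123 summits of replicate 1 in these windows, 38 had a summit of replicate 2 within 100 bp, or 30.9% (22.9 to 39.9%), as did 27.9% of the other nuclear summits of replicate 1. For summits over 500 bp from protein-coding ends the share was 29.2% (20.1 to 39.8%) of 89, and 20.7% of the others. From the side of replicate 2, such summits had a counterpart at 23.5% (16.1 to 32.3%) of 115 and at 16.4% of the others.

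The strongest candidate in a gene's window, taken in each replicate on its own, ranked high in both replicates at a few genes. The strongest candidates of a gene in the replicates need not be the same site. Over the 59 genes with candidates in both replicates, the median best rank was the top 30.7% of replicate 1 and the top 31.5% of replicate 2. The strongest site was in the top 10% of the list in 9 genes in replicate 1, in 10 genes in replicate 2 and in 7 genes in both. The same counts were not made over all nuclear genes, so these describe the 59 genes only. The 7 genes in the top 10% of both were linc-1, linc-44, K07C10.8, F17C11.20, anr-6, linc-109 and anr-11. anr-6 and anr-58 came closest to the IDR list without entering it. Their pooled signals were 72.54 and 71.72, at summits 51 bp and 319 bp from the 3′ end of a protein-coding gene, F25B4.7 and Y50D4A.6. Among as many of the strongest candidates of each replicate as the IDR list holds, 6 of the 294 genes had a summit in replicate 1 and 7 in replicate 2, or 2.04% in replicate 1 and 2.38% in replicate 2. Over all nuclear genes the shares were higher, at 2.99% in replicate 1 and 3.19% in replicate 2, and lay within the intervals of the 294 genes (0.753 to 4.39% in replicate 1 and 0.963 to 4.84% in replicate 2). The piRNA genes lower these values, at 0.104% in replicate 1 and 0.0846% in replicate 2. With the piRNA genes left out, the value of nuclear genes lies just above the interval in replicate 1 and inside it in replicate 2.

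**Figure D4:**
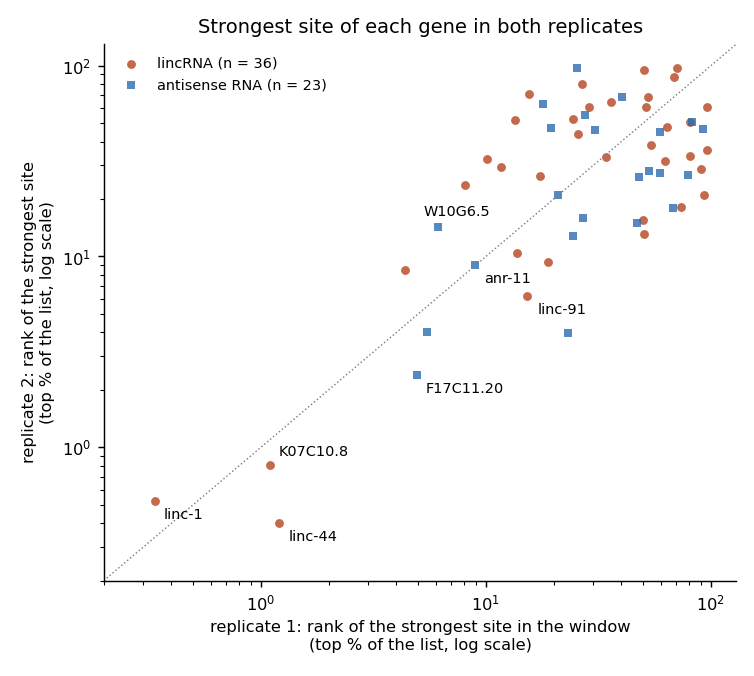
Rank of the strongest candidate of a gene, as the top percent of the list (log scales), in replicate 1 on the x axis and replicate 2 on the y axis, for the 59 genes with candidates in both replicates. The strongest candidate was taken in each replicate on its own and need not be the same site. Orange circles are 36 lincRNA genes, blue squares 23 antisense RNA genes, and the dotted line marks equal rank. linc-1, linc-44 and K07C10.8 lie apart at the strong end, and most other genes are spread over the weaker part of both lists.

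Of the 116 genes with a pooled candidate, 80 had 1, 26 had 2 and 10 had 3 or more. The 36 genes with 2 or more were 12.2% (8.73 to 16.5%) of the 294, whereas 14.9% of all nuclear genes had as many. The 10 with 3 or more were 3.40% (1.64 to 6.17%) of the 294, whereas 8.04% of all nuclear genes had as many. These shares were not compared at like window length. The median window was 1219.5 bp for the 294 genes, 2527 bp for protein-coding genes and 521 bp for piRNA genes. linc-129 (chrIII:10817263-10821245, plus strand) had 10 in a window of 4483 bp, or 2.23 per kb. No other of the 1321 nuclear genes with a window within 1.1-fold of that length had as many, and their median was 1. Its summits ran from 409 bp upstream to 3748 bp downstream of the start, with signals from 15.24 to 49.05, all below the IDR list. The highest, at 2490 bp, and a further one at 2689 bp with a signal of 28.95, lay in an exon and inside the ncRNA gene K11D9.8, which is annotated on the same strand. The summit farthest upstream, with a signal of 40.68, lay 4 bp from the start of sca-1, a calcium pump gene transcribed the other way. Replicate 1 had 3 candidates in the window and replicate 2 had 7. Of the 3 summits of replicate 1, the one at 3748 bp lay on the base of a pooled summit and 6 bp from a summit of replicate 2, with a signal of 7.10, close to the lowest of its list (6.99). The others, at 1305 bp and 2597 bp, lay 235 bp and 92 bp from the nearest pooled summit and 799 bp and 94 bp from the nearest summit of replicate 2. An IDR peak lay outside the window, 6301 bp upstream of linc-129, near the 3′ end of klp-7, a kinesin gene.

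**Figure D5:**
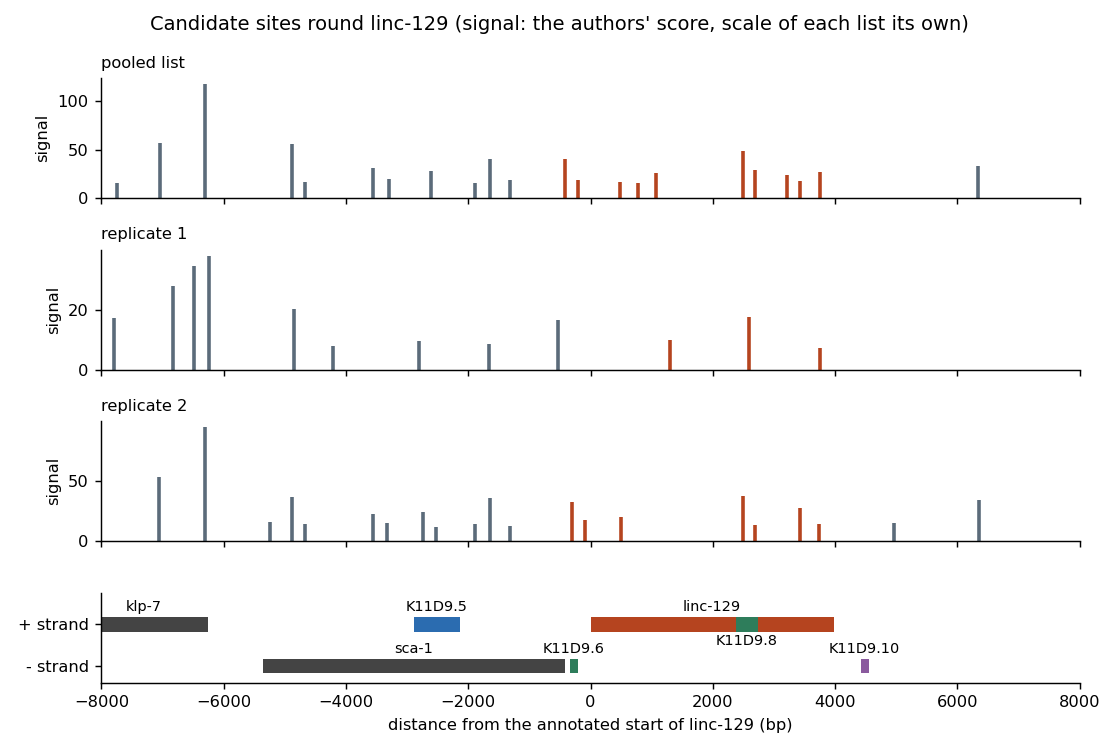
Candidate summits within 8000 bp of the start of linc-129 (x axis, bp) as vertical lines of their signal (y axis, the authors' score, each list on its own scale) in the pooled list, replicate 1 and replicate 2, above the annotated genes by strand without piRNA genes. Orange lines are the summits in the linc-129 window, 10 in the pooled list, 3 in replicate 1 and 7 in replicate 2; grey lines are outside it.

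linc-109 came next with 6 pooled candidates in 4909 bp, 3 in replicate 1 and 5 in replicate 2. Its strongest, with a signal of 61.77, lay 62 bp into the gene and 274 bp from the 3′ end of smap-1. Of the 1181 nuclear genes with a like window, 66 others had as many or more. linc-82 had 5 in 2684 bp, and 22 other genes of the 2529 with a like window had as many or more. anr-3 had 4 in 2671 bp, and 125 other genes of 2536 had as many or more.

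The antisense RNA genes were compared with the protein-coding genes they cross. Of the 100, 92 overlapped a protein-coding gene on the other strand, with 94 such hosts. An IDR summit lay within 500 bp of the start of 1 host (1.06%) and within 500 bp of the 3′ end of 4 hosts (4.26%). Over all nuclear protein-coding genes these shares were 2.96% at the start and 5.41% at the 3′ end. Pooled candidates had a density of 0.468 per kb in the stretches shared by antisense RNA gene and host, and 0.432 per kb in the rest of the hosts. ChIP fragments carry no strand, so a site in a shared stretch cannot be assigned to either gene. Of the 194 lincRNA genes, 21 overlapped a protein-coding gene on the other strand and 23 on the same strand.

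Some of the longest genes had no candidate. The 10 longest of the 142 genes with none in any list were linc-166, anr-49, linc-125, linc-165, anr-53, linc-157, F19G12.10, ZK822.8, linc-148 and linc-30. They were 2375 to 5143 bp long, and 3 of them, linc-166, anr-49 and F19G12.10, were on the X chromosome. Genes with a pooled candidate had a median length of 794 bp and those without one 646.5 bp. Their windows had a median GC content of 35.6% with a candidate and 33.7% without, and a median repeat-masked share of 34.2% with and 33.1% without.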

How the data were processed

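The values are peak lists of ChIP-seq in 2 biological replicates of 1 group. Per the notes deposited with the files, the authors called sites per replicate and on pooled reads with a control. They deposited for each site a signal score of unstated scale, which served here for ranking inside 1 list. Between lists it entered only a check of the median signal with 1 replicate left out. Aligner, caller, software versions and the cutoff of the IDR list were all not given in the sources used here. The control and the lists on ce10 were not used here.

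Genes came from Ensembl release 115 of WBcel235. All 294 symbols matched the RefSeq gene table of that assembly. A summit is the start plus the peak offset. Summits were counted per gene window with numpy 2.4.6 and pandas 2.3.3, exact intervals came from scipy 1.17.1, and figures from matplotlib 3.10.9. Counting was tested with simulated sites in the windows of annotated genes. No p-values were computed, since there is 1 group. Replicates are described separately.

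The genes named are all with an IDR peak, the 20 with the strongest pooled summit over 500 bp from protein-coding ends, and the 10 longest with no candidate in any list. Genes singled out for their number of candidates, and anr-6 and anr-58, were chosen after their values were seen. The gene set and its lists were chosen with earlier results of these data known. Soft-masking is that of the RefSeq genome. Sequences on chromosome I or over an annotated UTR are not shown.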

Additional observations from a re-analysis of the deposited data

How the results depend on the processing

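Under other windows, an overlap of intervals, the stronger part of the IDR list or the strongest candidates of 1 replicate, the share of the 294 genes with an IDR peak ran from 1.02% to 2.38%, inside the interval of the main value, and was below that of all nuclear genes each time. The range was 2.04% to 2.38% with 1 replicate left out. The share of antisense RNA genes rests on 1 gene and was 0% with 200 bp upstream, with the gene body only and with IDR peaks at or above their median signal. With no peak in 100 genes the upper limit was 3.62%.

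The share with a pooled candidate was 33.0% with 200 bp upstream, 32.3% within 500 bp of the start and 27.9% in the gene body. It was 15.3% in the upper tercile by signal, and 31.0% and 37.4% in replicate 1 and replicate 2 alone. It exceeded the share of all nuclear genes under each of these but the upper tercile, where 15.4% of nuclear genes held a summit. The share of all nuclear genes includes the piRNA genes, few of which held a candidate. The share of summits away from protein-coding ends was 81.0% at 200 bp and 51.7% at 1000 bp. The IDR summits away from such ends numbered 2 at 500 bp, 4 at 200 bp, 1 at 1000 bp and 1 among the stronger peaks. Replicate 1 summits with a counterpart made up 17.1% at 50 bp and 52.8% at 500 bp. The median signal in these windows was 9.97 in replicate 1 and 19.0 in replicate 2, on the scale of each list. With the strongest 5000 candidates, 7.14% of the genes held a summit in replicate 1 and 6.80% in replicate 2, a mean of 6.97%, whereas 9.26% and 9.54% of all nuclear genes did in replicate 1 and replicate 2. The causes of these shifts were not tested. Of 45 alternatives, 28 stayed within the stated spread. No paired analysis was possible because the labels give 1 group and no result comes from a test. Read depth is unknown, so a gene with no candidate may be below what these lists could detect.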
